A study of Mus musculus with 4 samples.

Results

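Recruited monocytes and monocyte-derived macrophages, here called monocytes, were examined among leukocytes sorted from the mouse brain. A barcode was counted as a monocyte when it carried at least 1000 unique molecular identifiers (UMIs, each standing for 1 captured transcript), at most 10% of them mitochondrial, and UMIs of at least 3 of Ccr2, Ly6c2, Plac8, Vcan, Chil3 and Ms4a4c that together made up at least 0.1% of its UMIs. S100a8 and S100a9 had to stay under 3% of UMIs, a limit meant to keep neutrophils out. No UMI of Cd3e, Cd79a, Flt3 or Ncr1 was allowed, and at most 2 of the border macrophage genes Mrc1, Pf4, F13a1, Cd163, Lyve1 and Cbr2. The rule found 381 monocytes among 30363 barcodes that met the depth and mitochondrial limits.

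The study set young (3 to 6 months) against aged (18 to 20 months) wild-type C57Bl/6 mice on day 3 of recovery from cardiac arrest (CA) or from a sham operation without it. The arrest was brought on by potassium chloride, and the mice were resuscitated. After perfusion, mechanical dissociation and Percoll enrichment, brain cells carrying the leukocyte surface protein CD45 were sorted for droplet sequencing of transcript 3′ ends. Each of the 4 groups (young sham, young CA, aged sham, aged CA) was 1 library pooled from 3 mice, and 4 values in a row follow this order of libraries. With 1 library per group no difference could be tested, and every interval below is an exact 95% interval that covers counting error only.

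Classical monocytes are made in the bone marrow, enter the blood through CCR2, the receptor of the chemokine CCL2, and follow the same receptor into injured tissue. In the brain, which has its own resident macrophages (microglia in the parenchyma and border-associated macrophages in the meninges and around vessels), they lose Ly6C and CCR2 over days and take up a macrophage programme of lysosomal, lipid handling and complement genes, or an antigen presenting programme with MHC class II. On arrival they can also be strong sources of interleukin 1, chemokines and interferon-induced proteins.

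The rule found 12 and 295 monocytes in young mice after sham and after CA, and 27 and 47 in aged mice. Their shares of the barcodes that met the depth and mitochondrial limits were 0.148% (0.0764 to 0.258), 2.97% (2.65 to 3.33), 0.411% (0.271 to 0.597) and 0.817% (0.601 to 1.09). The share was 20.1-fold higher (11.4 to 39.4) in young CA than in young sham. In aged CA it was 1.99-fold higher (1.21 to 3.32) than in aged sham. Against young CA the aged CA share was 3.64-fold lower (2.67 to 5.06), and against young sham the aged sham share was 2.78-fold higher (1.36 to 6.03). These 4 intervals excluded equality, but they hold no spread between pools of mice, and the count of microglia in the denominator differed between libraries. Among barcodes that did not meet the microglia rule, monocytes made up 2.86%, 18.8%, 2.15% and 2.72% in the same order, so the aged sham share was then not above the young sham share. With each barcode thinned at random to 1000 UMIs, 237 young CA and 26 aged CA barcodes met the rule, and the aged CA share was 0.190 of the young CA share.

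**Figure D1:**
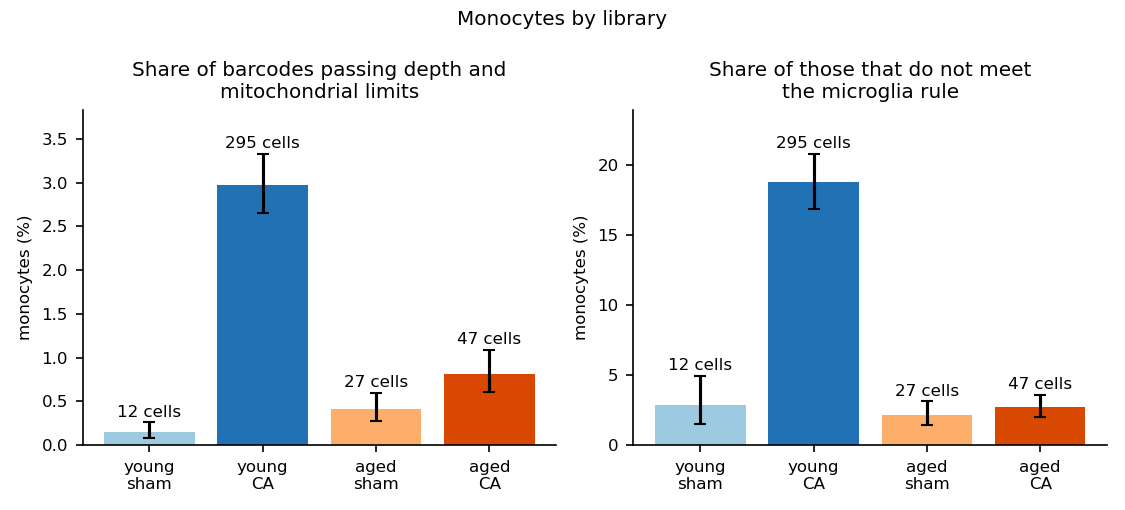
Monocytes as a percentage of all barcodes that met the depth and mitochondrial limits (left) and of those that did not meet the microglia rule (right), by library. Bars are 1 pooled library each, error bars are exact binomial 95% intervals for counting error, and the young CA bar is the highest in both panels, at 2.97% and 18.8%.

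The libraries held 44277472 to 115892682 UMIs over 6794 to 10794 barcodes. Summed over monocytes, the depth was 306869, 5921290, 256589 and 1237576 UMIs, with medians of 22687.5, 20036, 2795 and 26295 UMIs per cell. Aged sham stood apart, since 18 of its 27 monocytes held under 5000 UMIs, and values for sham monocytes of either age rest on few cells. The marker sum lay between 0.1% and 0.2% of UMIs, just inside the limit, in 17 young CA and 3 aged CA monocytes, and 10 and 4 barcodes with 3 or more markers lay between 0.05% and 0.1%, just outside it. A UMI of Flt3, a dendritic cell receptor, kept out 104 young CA and 12 aged CA barcodes. Of the barcodes with enough markers, the S100a8 and S100a9 limit left 22 of 30, 409 of 416, 58 of 83 and 65 of 94. It thus removed a larger part of these barcodes in aged CA than in young CA. The part of this limit in the shares was not tested. Between 15 and 32 barcode sequences were shared by any 2 libraries, and no barcode was a monocyte in both.

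The identity of the cells was checked against microglial markers, which the rule did not use. The 10 microglial markers summed to 2017, 2078, 1208 and 655 CPM (UMIs scaled to a total of 1000000) in monocytes, against 8187 to 18944 CPM in microglia. T cells, used as a measure of free RNA because they lack these transcripts, held 1244, 1359, 1268 and 537 CPM. Monocytes thus stood far nearer to T cells than to microglia in each library. In aged sham the median monocyte carried 0.135% of its UMIs on 6 of these markers, above the T cell median of 0.0316%, and 14 of the 27 reached 0.1%. That limit was reached by 1, 53 and 2 monocytes in young sham, young CA and aged CA. The 10 neutrophil markers, of which the rule limited S100a8 and S100a9, summed to 385, 309.9, 203 and 3286 CPM in monocytes, with Ly6g, Camp and Ltf at 0 in aged CA. The 6 border macrophage genes, all limited by the rule and so no independent check, summed to 1668, 262, 1360 and 695 CPM. The doublet caller Scrublet by its own threshold called 3, 0, 0 and 1 barcodes. The barcodes of highest score were therefore marked up to the expected doublet rate, 787 of 9919 in young CA. These included 47 of the 295 young CA monocytes (15.9%), and 0 monocytes were marked in the other libraries. Marked cells were kept.

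Genes outside the rule set monocytes apart from the resident macrophages of the same libraries. Because the cells were chosen by marker genes, these values are descriptions. Against microglia, the genes with the largest ratios in young CA included F10, which encodes coagulation factor X, at 403 against 0.422 CPM in young CA and 507 against 1.11 CPM in aged CA. S100a6, a calcium binding protein, was at 2131 against 3.80 CPM in young CA and 4283 against 6.18 CPM in aged CA. Slpi, a leukocyte protease inhibitor, was at 326 against 0.278 CPM in young CA and 429 against 1.83 CPM in aged CA, and the orphan receptor gene Gpr141 at 205 against 0.154 CPM in young CA and 226 against 0.175 CPM in aged CA. In each of these the aged CA and young CA monocytes stood on the same side of microglia. Against border-associated macrophages, Hp, which encodes haptoglobin, was at 187 against 7.89 CPM in young CA and 702 against 2.88 CPM in aged CA, and Ifitm1 was at 253 against 5.26 CPM in young CA and 299.8 against 8.63 CPM in aged CA. For some leading genes the gap was narrower in aged CA: Gpnmb was at 522 against 23.7 CPM in young CA and 13.7 against 2.88 CPM in aged CA, and Fabp5, a fatty acid binding protein, at 976 against 36.8 CPM in young CA and 61.4 against 34.5 CPM in aged CA. Against dendritic cells, Thbs1, which encodes the matrix protein thrombospondin 1, was at 648 against 0 CPM in young CA and 1109 against 0 CPM in aged CA.

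The monocytes found after CA in young mice differed from the few found after sham surgery in macrophage genes, among others. Of 20 macrophage maturation genes, all of which had enough UMIs to be compared, 16 were at least 2-fold higher and 0 at least 2-fold lower in young CA, with a median log2 ratio of 1.93. Over all 2915 genes with at least 20 expected UMIs in the smaller library, 8.64% were at least 2-fold higher and 9.61% at least 2-fold lower, with a median of -0.11. TMM scaling, another way to scale the sums, moved that median from -0.11 to 0.15 and gave 372 higher and 163 lower in place of 252 and 280. The counts in each direction thus depended on the scaling. Gpnmb, a lysosomal glycoprotein gene of lipid-laden macrophages, was at 0, 522, 0 and 13.7 CPM. Young CA was the library in which it stood high, at least 53.4-fold higher than in young sham. Ms4a7, a gene of monocyte-derived macrophages, was at 3.26, 384, 39.0 and 15.4 CPM in the same order, and only 1 UMI lay behind the young sham value. Apoe, the main lipid carrier of brain macrophages, was at 739.7, 8772, 2467 and 6265 CPM. It was lowest in young sham and 11.9-fold higher (10.4 to 13.6) in young CA than there. The lysosomal proteases followed, with Ctsb 4.62-fold higher (4.02 to 5.34) and Lgmn 7.84-fold higher (6.26 to 9.96). Complement C1qa was 3.41-fold higher (2.83 to 4.16), but 1 of the 12 young sham monocytes held 66.7% of the young sham UMIs of this gene.

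Genes of wound repair and lipid handling were also mostly higher in young CA. Of 9 comparable wound and repair genes, 6 were at least 2-fold higher and 0 at least 2-fold lower in young CA (median log2 ratio 1.66). Spp1, which encodes osteopontin, was at 3.26, 555, 3.90 and 119 CPM in the usual order of libraries. Both sham values were single UMIs, and young CA was 170.3-fold higher (30.5 to 6728) than young sham. Thbs1 was at 0, 648, 19.5 and 1109 CPM, with both CA libraries far above both sham libraries. Arg1, the arginase of repair macrophages, was at 0, 113, 3.90 and 498 CPM, highest in aged CA. Of 10 lipid genes 6 were at least 2-fold higher, among them the lipid droplet gene Plin2, 8.58-fold higher (5.6 to 13.9). The 2 that were lower included lipoprotein lipase (Lpl), 8.29-fold lower (6.17 to 11).

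Interferon-stimulated genes stood higher in young CA than in young sham, with 17 of 27 at least 2-fold higher, 0 lower and a median log2 ratio of 1.41. Isg15, a ubiquitin-like protein induced by type I interferon, was at 349, 1351, 74.0 and 821 CPM. Irf7, a factor that amplifies interferon, was at 313, 893, 136 and 363 CPM, and Rsad2, an antiviral enzyme, at 137, 609.8, 58.5 and 659 CPM. Genes typical of interferon gamma were on the opposite side: 0 of 9 were at least 2-fold higher, 5 at least 2-fold lower, and the median was -1.29. Gbp2, a guanylate binding protein, was at 420.4, 119, 62.4 and 197 CPM, and Iigp1, an immunity related GTPase, at 254, 10.3, 3.90 and 8.89 CPM. These genes were carried by few sham cells, since 5 of the 12 young sham monocytes held Gbp2 UMIs and 3 held Iigp1 UMIs. MHC class II had 0 higher and 1 lower of 7 genes and a median of -0.92.

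Classical monocyte genes had no common direction between young sham and young CA. F13a1, a coagulation subunit gene that the rule counts among the border macrophage markers, was at 1584, 251, 1274 and 655 CPM, and Fn1 (fibronectin) at 1492, 597, 1278 and 1328 CPM. The classical list outside the rule was divided, with 9 of 18 genes higher and 9 lower in young CA. At least 2-fold higher were 5 and at least 2-fold lower 6, with a median log2 ratio of -0.21 against -0.11 over all genes. Cycling genes were lower in young CA (5 of 8 at least 2-fold lower, median -2.84), but a lone young sham monocyte held 52 of the 67 Mki67 UMIs and 55 of the Top2a UMIs of that library. Hist1h1b and Hist1h2ap, histone genes of dividing cells, were among the 5 lowest ratios of young CA to young sham, and this cell held 248 of the 256 Hist1h1b UMIs. Sntb1 and Itga1 were the others outside the lists, 29.6-fold lower (18.0 to 49.5) and 28.9-fold lower (18.1 to 46.8).

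**Figure D2:**
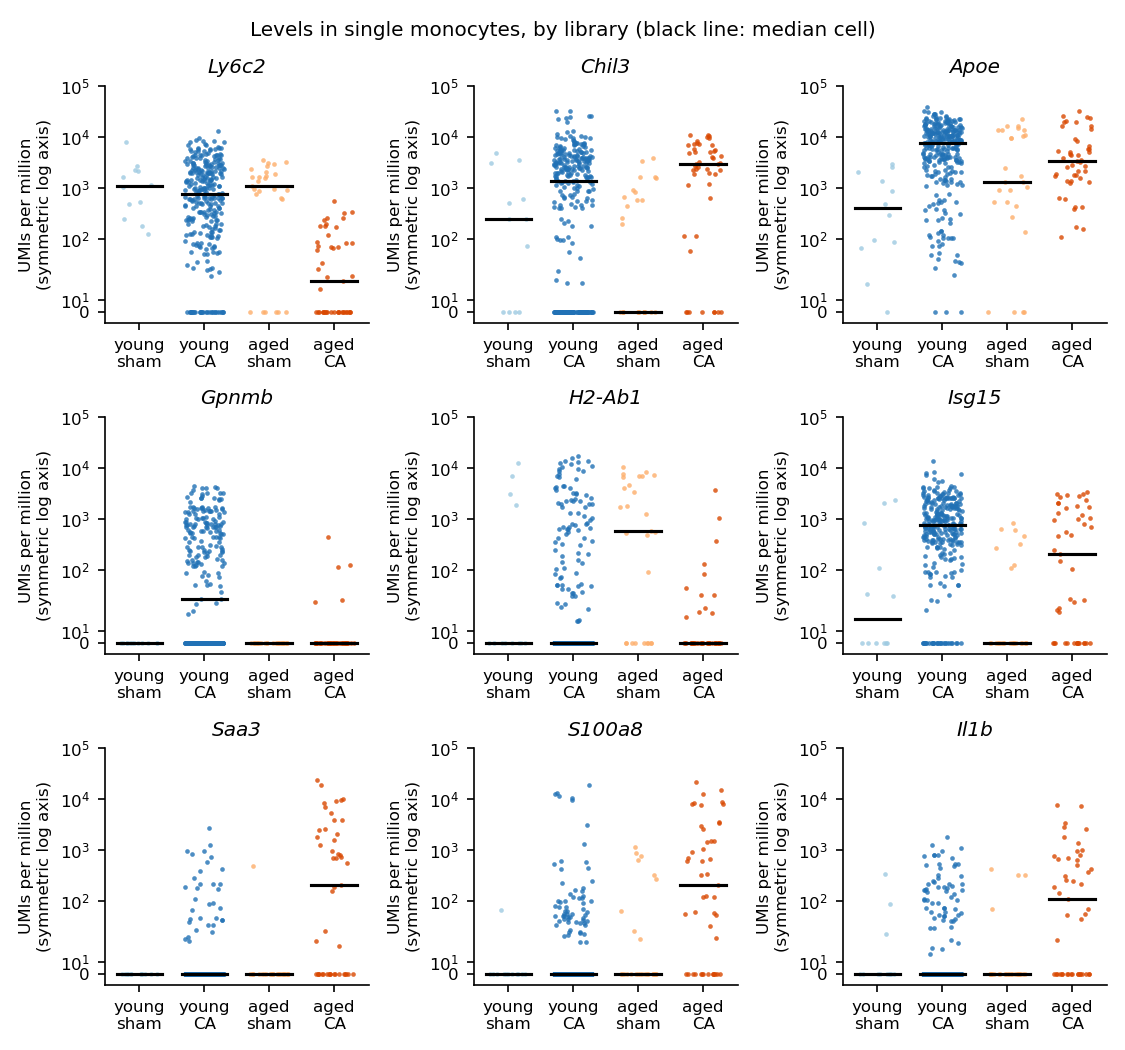
UMIs scaled to 1000000 in each monocyte for 9 genes, by library, on a symmetric log axis that is linear near 0, with a black line at the median cell. Gpnmb is at 0 in most cells outside young CA, Ly6c2 is lowest in aged CA, and Saa3, S100a8 and Il1b are highest in aged CA.

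The central comparison was aged CA against young CA, the 2 libraries with most monocytes. Over 6693 genes with at least 20 expected UMIs in aged CA, 342 (5.11%) were at least 2-fold higher in aged CA and 658 (9.83%) at least 2-fold lower, with a median log2 ratio of -0.06. Of the gene lists, those of inflammatory cytokines and chemokines were mostly higher in aged CA, and those of macrophage maturation, MHC class II and lipid handling were mostly lower. Genes outside the lists are named where they were among the 10 largest ratios in a direction.

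Inflammatory cytokine genes and genes driven by NF-kB, the factor that switches on cytokine genes, were at least 2-fold higher in aged CA in 11 of 14 cases and at least 2-fold lower in 0, with a median log2 ratio of 1.81. Il1b, which encodes interleukin 1 beta, was at 29.3, 50.5, 77.9 and 838 CPM. Aged CA was the highest of the 4 libraries, 16.6-fold higher (14.6 to 18.9) than young CA, and 29 of 47 aged CA monocytes held Il1b UMIs against 65 of 295 in young CA. Il1a, the other interleukin 1, was at 8.61 and 196 CPM in young CA and aged CA. Tumour necrosis factor (Tnf) was at 24.2 and 90.5 CPM and the inflammasome sensor Nlrp3 at 30.2 and 107 CPM. Aged CA was thus higher in the ligands and in the sensor of the interleukin 1 pathway. The NF-kB inhibitors Nfkbia and Tnfaip3, which NF-kB itself induces, were 3.18-fold higher (2.94 to 3.45) and 2.97-fold higher (2.26 to 3.89). Interleukin 18 (Il18) lay the other way, with a log2 ratio of -0.57, and Il10 and Cxcl1 were at or under 3 UMIs in both libraries. In the 20 young CA and 7 aged CA monocytes without a UMI of the 3 microglial markers P2ry12, Tmem119 and Sall1, the list's median was 0.30, while in the other 10 alternatives it was at least 1.57.

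Chemokine genes were at least 2-fold higher in aged CA in 10 of 12 cases and at least 2-fold lower in 1 (median log2 ratio 1.96). Cxcl2, which draws neutrophils through CXCR2, lies at chr5:90903871-90905938 on GRCm38 and was at 0, 1.35, 0 and 351 CPM. It was 260.2-fold higher (131 to 606) in aged CA than in young CA, in 17 of 47 against 6 of 295 monocytes. Its neighbour Cxcl3 was at 0 UMIs in the other 3 libraries and at 113 CPM in aged CA, at least 223-fold higher than in young CA, but only 6 cells carried it and 1 of them held 52.9% of its UMIs. Of the CCR2 ligands, Ccl2 was at 22.8, 407, 27.3 and 2613 CPM and Ccl7 at 0, 73.5, 0 and 545 CPM. Both were highest in aged CA, Ccl2 in 36 of 47 monocytes and Ccl7 in 16. Ccl12 was 3.86-fold higher (3.49 to 4.26), with 55.3% of its aged CA UMIs in 1 cell. Cxcl10, an interferon-induced attractant of T cells, was at 675, 816, 0 and 3770 CPM, and 32 of 47 aged CA monocytes held it against 102 of 295 in young CA. Cxcl16 was the exception, 2.77-fold lower (2.32 to 3.33), and Ccl5 was equal within counting error at 212 and 215 CPM.

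The promoters of 4 of these genes are shown because these genes were high together in aged CA or with the interferon list and hold a letter match to the motif of NF-kB or of interferon response factors. Sequences are RefSeq's on GRCm38.p6 and cover the 250 bases before its annotated start, written 5′ to 3′ in the direction of the gene. Capitals mark the match, on either strand, to the NF-kB consensus in Cxcl2 and Cxcl3 and to the core of the interferon-stimulated response element (GAAA, any 2 bases, GAAA) in Cxcl10 and Ifit1. Overlaps with other motifs were not removed. The Cxcl10 promoter also holds an NF-kB match, which is left in lower case, and 5 of 13 chemokine promoters held that motif (Ccl9, Cxcl1, Cxcl2, Cxcl3 and Cxcl10).
Cxcl2, chr5:90903649-90903898, plus strand: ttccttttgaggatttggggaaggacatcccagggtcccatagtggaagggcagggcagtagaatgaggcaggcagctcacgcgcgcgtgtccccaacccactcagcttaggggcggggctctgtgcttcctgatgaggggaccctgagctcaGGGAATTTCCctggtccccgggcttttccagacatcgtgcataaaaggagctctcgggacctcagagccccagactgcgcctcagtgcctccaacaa
Cxcl3, chr5:90785851-90786100, plus strand: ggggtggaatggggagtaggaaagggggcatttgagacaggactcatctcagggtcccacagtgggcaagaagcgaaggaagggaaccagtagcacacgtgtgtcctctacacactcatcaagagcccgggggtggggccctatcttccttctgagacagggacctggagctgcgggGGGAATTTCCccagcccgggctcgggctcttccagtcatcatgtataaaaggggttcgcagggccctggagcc
Cxcl10, chr5:92348890-92349139, minus strand: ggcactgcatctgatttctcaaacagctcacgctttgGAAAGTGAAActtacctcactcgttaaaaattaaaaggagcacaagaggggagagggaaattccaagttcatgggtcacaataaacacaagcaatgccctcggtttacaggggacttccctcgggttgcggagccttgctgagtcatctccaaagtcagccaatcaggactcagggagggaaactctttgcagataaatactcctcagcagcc
Ifit1, chr19:34640639-34640888, plus strand: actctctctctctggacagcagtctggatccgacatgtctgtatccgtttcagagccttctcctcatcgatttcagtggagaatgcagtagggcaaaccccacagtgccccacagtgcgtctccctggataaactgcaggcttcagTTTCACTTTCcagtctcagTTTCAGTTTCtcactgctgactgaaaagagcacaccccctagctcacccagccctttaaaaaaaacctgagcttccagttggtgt
The match was the same in Cxcl2 and Cxcl3 and began 97 and 73 bases before the start. Those of Ifit1 lie on the opposite strand. Of the inflammatory list, 15 of 20 genes had a promoter in the table and 7 held an NF-kB match, namely Cxcl1, Cxcl2, Cxcl3, Il6, Nfkbia, Nlrp3 and Tnfaip3, against 5.67% of 27025 promoters of the same length. Of the interferon list, 10 of 22 promoters held the response element, against 3.46% of all. The macrophage maturation list held an NF-kB match in 1 of 13 promoters and the response element in 0 of 13. A match describes letters and shows neither binding nor use.

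Saa3, Wfdc21, Lcn2, S100a8 and S100a9 were each highest in aged CA among the 4 libraries. Saa3, a serum amyloid A protein of activated macrophages at chr7:46711998-46715700, was at 0, 42.6, 35.1 and 3159 CPM. It was 74.2-fold higher (65.3 to 84.7) in aged CA than in young CA, its median cell stood at 209 against 0 CPM, and 29 of 47 monocytes held it against 34 of 295. At a common depth of 1000 UMIs per cell, 44.7% (30.2 to 59.9) of aged CA and 4.07% (2.12 to 7.0) of young CA monocytes held a Saa3 UMI, against 0 of 112 and 0 of 25 T cells, which allows T cell shares of up to 3.24% and 13.7%. Median T cell depths before thinning were 8923.5 and 8478 UMIs. Wfdc21 and Lcn2, the latter encoding the siderophore binder lipocalin 2, were at 0, 12.2, 0 and 629 CPM and 13, 28.9, 15.6 and 536 CPM. S100a8, which the rule limited from above, was still 40.4-fold higher (36.4 to 44.9) and S100a9 38.5-fold higher (28.7 to 52.5). The same 4 genes are abundant in neutrophils, where S100a8 stood at 133314 and 117664 CPM and S100a9 at 135453 and 104480 CPM in young CA and aged CA, while aged CA monocytes held S100a8 and S100a9 at 2742 and 331 CPM. The rule limited S100a8 and S100a9 in monocytes, and the neutrophil class was chosen by them, so these levels are descriptions. Lcn2 and Wfdc21 were at 9028 and 4683 CPM in aged CA neutrophils. The part of neutrophil RNA in these results was not tested. Of the 10 neutrophil markers 4 could be compared, of which 3 were at least 2-fold higher and 1 at least 2-fold lower in aged CA (median log2 ratio 3.16). Besides S100a8 and S100a9 the higher one was Mmp8, a granule collagenase, at 196, 65.2, 42.9 and 135 CPM, highest in young sham. Of the members with too few UMIs to compare, Cxcr2 was at 16.2 CPM in aged CA monocytes. Ly6g, Camp and Ltf were at 0 and Ngp and Retnlg at 0.808 and 8.89 CPM there, and the last 2 stood at 11131 and 16145 CPM in aged CA neutrophils. Saa3 itself was lower in aged CA neutrophils, at 523 CPM, than in the monocytes. In neutrophils of the 4 libraries Vcan was at 0, 0, 0 and 181 CPM and Ccr2 at 0, 0, 5.42 and 70.3 CPM. Plac8 was also highest in aged CA neutrophils, while Ly6c2, Chil3 and Ms4a4c were not. Whether monocytes were among the aged CA neutrophil barcodes was not tested.

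Fpr1 and Fpr2 encode receptors that sense formyl peptides of bacteria and mitochondria. Fpr1 was 38.9-fold higher (22.7 to 71.7) in 25 of 47 monocytes, and Fpr2, from the receptor list, 7.48-fold higher (5.91 to 9.49). Palld, Cpne8 and Dok6 were 36.9-fold higher (16.7 to 96.2), 26.7-fold higher (11.8 to 70.6) and 23.5-fold higher (12.5 to 48.1), carried by 20, 13 and 16 of 47 cells. Wfdc21, above, was also among the 10. Csta2 and Inhba ranked among the 10 as well, but 1 cell held 72.7% and 84.2% of their aged CA UMIs. Classical monocyte genes outside the rule were at least 2-fold higher in 5 of 18 and lower in 0 (median 0.64), led by the lectin receptor Clec4e at 129.7 and 755 CPM, and by Hp at 187 and 702 CPM. With all cells thinned to 1000 UMIs that median was 0.08.

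**Figure D3:**
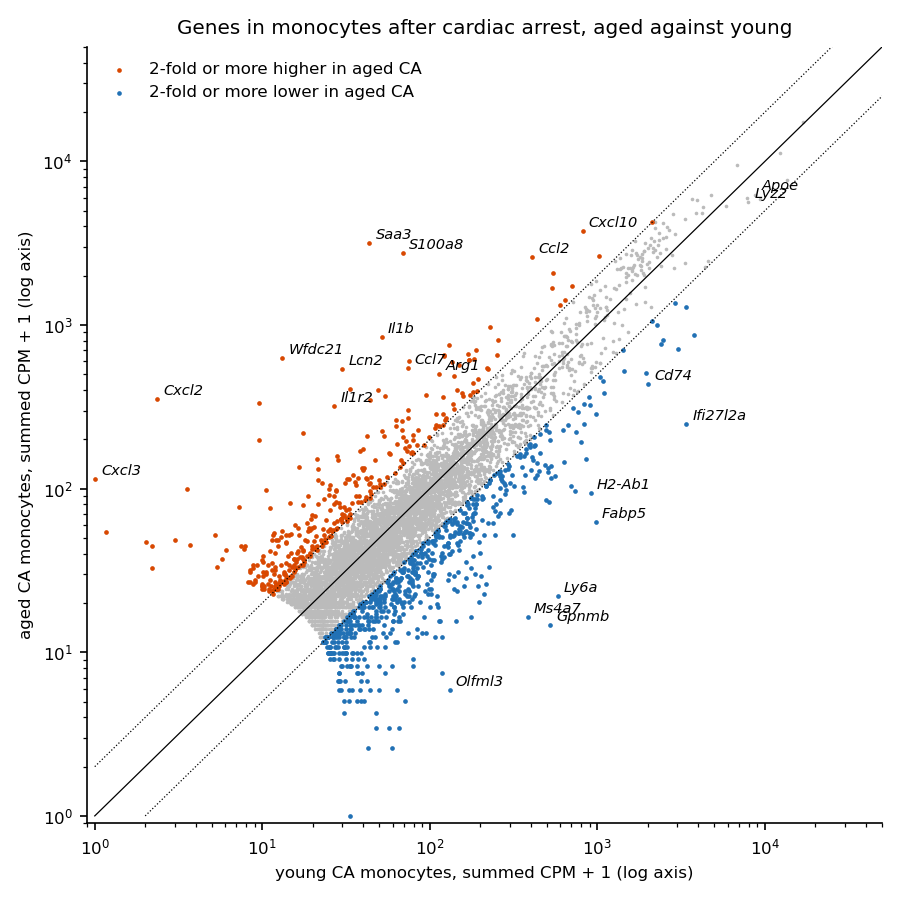
Summed CPM plus 1 of each eligible gene in young CA (horizontal) and aged CA (vertical) monocytes on log axes, with the line of equality and dotted lines at 2-fold. The 342 genes at least 2-fold higher in aged CA, among them Saa3, Cxcl2 and Il1b, are orange and the 658 at least 2-fold lower, among them Gpnmb, Ly6a and Fabp5, are blue.

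The macrophage maturation genes, described above for young CA and young sham, were mostly lower in aged CA than in young CA. Of 20 genes 0 were at least 2-fold higher and 11 at least 2-fold lower, with a median log2 ratio of -1.06 that stayed between -1.29 and -0.71 under the 12 alternatives run. This comparison and that of young CA with young sham both use the young CA library. Gpnmb, at chr6:49036546-49070929, was 38.0-fold lower (23.7 to 65.3) in aged CA, and 5 of 47 monocytes held it against 152 of 295. Thinned to 1000 UMIs per cell the shares were 0% (0 to 7.55) and 25.4% (20.6 to 30.8), with 0.893% and 0% of T cells. Ms4a7 was 25-fold lower (16.0 to 41.6), and the phospholipid transfer gene Pltp had a log2 ratio of -3.34. The lysosomal genes Ctsb, Ctsd, Lgmn and Cd68 were at 3029, 2469, 1943 and 802 CPM after CA in young mice, and after CA in aged mice at 711, 810.5, 511 and 192 CPM, each at least 3-fold lower. Apoe and C1qb differed less, by -0.49 and -0.48 on the log2 scale, and haem oxygenase (Hmox1) was the only member above 0, at 0.22. Maf, a transcription factor of macrophage identity, was 2.07-fold lower (1.77 to 2.43).

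The microglial markers moved with this group: 9 of 9 comparable ones were at least 2-fold lower in aged CA monocytes, and the list summed to 2078 CPM in young CA and 655 CPM in aged CA, and none of the 10 was at 0 in either. In T cells the same sums were 1359 and 537 CPM. Their part in the maturation result was not tested. Gpnmb, Ms4a7 and Fabp5 were at 2.86, 3.97 and 16.9 CPM in young CA microglia and at 522, 384 and 976 CPM in young CA monocytes. C1qa was at 7725 CPM in young CA microglia and 1060 CPM in young CA T cells. With monocytes that held 0.1% or more of microglial UMIs left out, the maturation median was -0.96.

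Outside the lists, the 10 lowest ratios also held Calhm6, Kdr, the receptor of vascular endothelial growth factor, Arhgap22 and Tmem273. They were 26.5-fold lower (9.01 to 129), 23-fold lower (7.80 to 112), 18.0-fold lower (9.10 to 41.9) and 17.4-fold lower (7.39 to 53.8) in the order given. Lipid handling genes were lower in aged CA in 6 of 12 cases by at least 2-fold and higher in 0 (median -0.83). Fabp5 was at 97.8, 976, 136 and 61.4 CPM, high in young CA alone and 15.9-fold lower (12.7 to 20.2) in aged CA. The cholesterol exporter Abcg1 and acid lipase Lipa had log2 ratios of -2.06 and -1.64, while Plin2 was level at 587 and 599.6 CPM. Spp1 was 4.67-fold lower (3.96 to 5.55), and Arg1, from the same repair list, 4.41-fold higher (3.94 to 4.92). The repair list thus held members on both sides, with 1 of 12 at least 2-fold higher and 3 lower. Among clearance receptors 3 of 10 were at least 2-fold lower and 1 higher. Axl, a receptor for dying cells, was 9.60-fold lower (6.56 to 14.6), and the scavenger receptor Msr1 was 2.48-fold higher (2.26 to 2.73).

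Antigen presentation genes were lower in aged CA. MHC class II, which presents peptides to CD4 T cells, had 0 of 8 genes at least 2-fold higher and 6 at least 2-fold lower (median -1.94). H2-Ab1, a class II beta chain at chr17:34257689-34269419, was at 1792, 910.3, 1021 and 92.9 CPM. Aged CA was the lowest of the 4 libraries, 9.80-fold lower (8.14 to 11.9) than young CA, although 4 of 12, 96 of 295, 18 of 27 and 12 of 47 monocytes held it. Thinned to 1000 UMIs per cell, 18.0% (13.8 to 22.8) of young CA and 6.38% (1.34 to 17.5) of aged CA monocytes held it, with 0% and 1.79% of T cells. Of the aged CA UMIs of this gene, 60.9% came from 1 cell. Cd74, the invariant chain, was at 3757, 2017, 2689 and 436 CPM. The costimulatory genes Cd86 and Cd80 differed by -0.41 and 0.28 on the log2 scale. MHC class I genes were all below 0, 3 of 11 at least 2-fold, among them H2-K1 at 1445 and 520.4 CPM and B2m at 3395 and 1293 CPM.

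Interferon-stimulated genes were lower in aged CA in 25 of 27 cases but at least 2-fold in 6 (median -0.57). Several antiviral members differed little. Ifit1 was at 140.1, 486, 7.79 and 415 CPM, and Rsad2 and Ifit2 differed by 0.11 and -0.15 on the log2 scale. Ifi27l2a, Oasl2 and Bst2 were further apart, at -3.79, -2.01 and -1.79. Isg15 UMIs were found in 32 of 47 aged CA against 266 of 295 young CA monocytes, with summed levels of 821 and 1351 CPM.

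**Figure D4:**
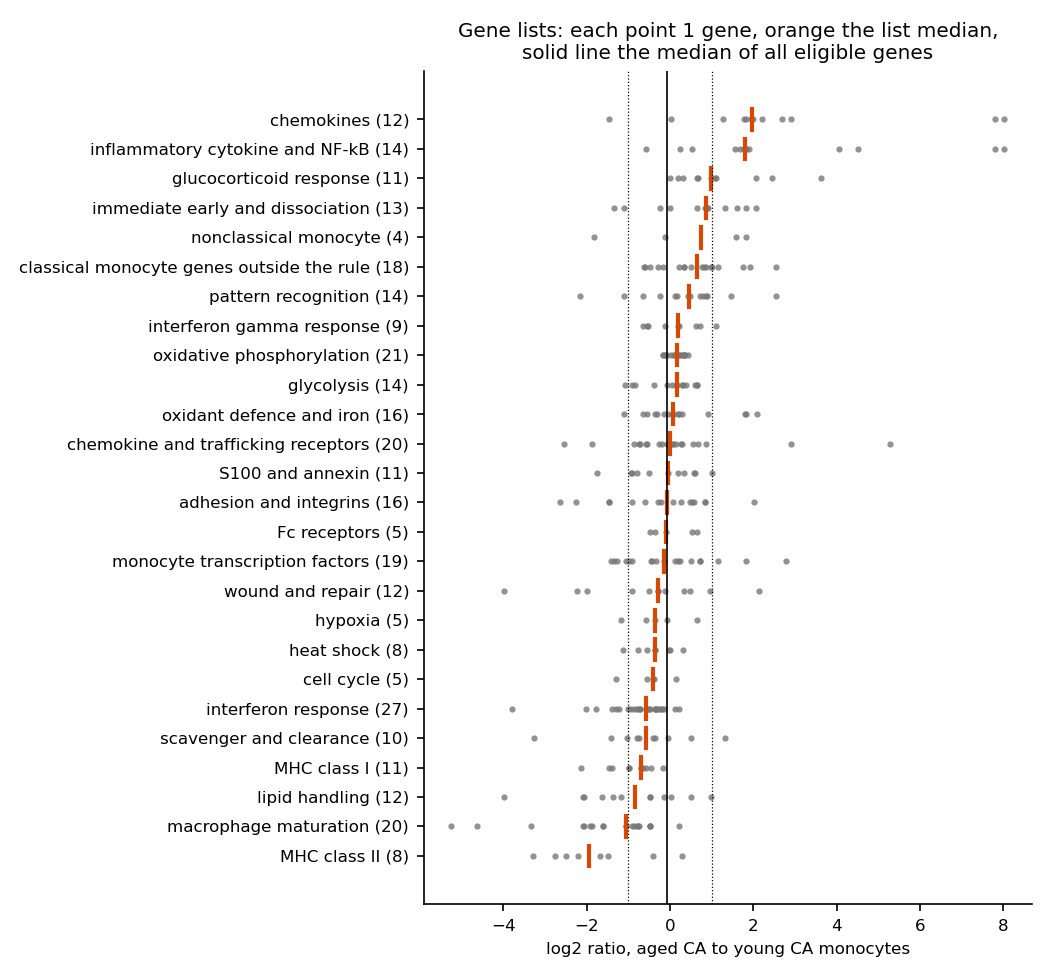
Log2 ratio of aged CA to young CA monocytes for each comparable gene of each list (grey points, numbers of genes in brackets), with list medians in orange, the median of all genes as a solid line and 2-fold as dotted lines. Chemokines and inflammatory genes have medians of 1.96 and 1.81, and macrophage maturation and MHC class II of -1.06 and -1.94.

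Genes induced by glucocorticoids, the adrenal stress hormones, were above 0 in 11 of 11 cases and at least 2-fold higher in 5 (median 0.99). Il1r2, the decoy receptor of interleukin 1, was at 0, 25.8, 3.90 and 317 CPM and 12.3-fold higher (10.1 to 14.9). Klf9 was 5.50-fold higher (4.28 to 7.07) and the chaperone gene Fkbp5 1.99-fold higher (1.77 to 2.22). Klf9 was also higher in T cells, dendritic cells, border macrophages and microglia of aged CA than of young CA, at 22.9 and 117 CPM in young and aged CA T cells. Immediate early genes, which also respond to cell isolation, were at least 2-fold higher in 4 of 13 and lower in 2 (median 0.85). Among transcription factors 3 of 19 were at least 2-fold higher and 4 lower. Klf2 and Klf4, factors of quiescence and monocyte development, were 6.93-fold higher (5.99 to 8.03) and 2.22-fold higher (1.77 to 2.77), Irf8, needed for monocyte and dendritic cell development, was 2.43-fold lower (2.04 to 2.91), and the lineage factor Spi1 stood at 493 and 565 CPM.

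Receptors and adhesion genes had no common direction, with 2 and 1 at least 2-fold higher, 2 and 4 lower, of 20 and 16. Cx3cr1, the fractalkine receptor of patrolling monocytes and microglia, was 5.86-fold lower (4.82 to 7.20), and Cxcr4, a bone marrow retention receptor, 3.63-fold lower (2.88 to 4.65). Csf1r, the receptor for macrophage survival signals, was 1.67-fold lower (1.52 to 1.83). The integrin genes Itgam and Itga4 were 1.79-fold higher (1.65 to 1.94) and 1.78-fold higher (1.57 to 2.01), and Itgb5 6.21-fold lower (5.10 to 7.64). Metabolic genes differed little: 0 of 21 oxidative phosphorylation genes and 1 of 14 glycolysis genes were 2-fold apart. The iron store gene Fth1 was at 3145, 16930, 2003 and 17449 CPM, high in both CA libraries.

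The rule's own genes also differed and are given as description. Ly6c2, the Ly6C antigen of classical monocytes at chr15:75108158-75111970, was at 1567, 1632, 1574 and 89.7 CPM, and its median cell at 766 CPM in young CA and 26.7 CPM in aged CA. Aged CA was low and the other 3 libraries were alike. Chil3 was at 837, 2282, 1025 and 3824 CPM, Ccr2 at 1186, 699, 1578 and 612 CPM and Vcan at 189, 118, 300.1 and 467 CPM. Plac8 was at 2066, 2235, 1754 and 1034 CPM and Ms4a4c at 619, 1467, 549.5 and 597 CPM. Of the 6 genes, Chil3 and Vcan were thus higher in aged CA than in young CA, and Ly6c2, Plac8, Ms4a4c and Ccr2 lower, Ccr2 by the least. Chil3 was also abundant in neutrophils, at 4509, 4780, 2760 and 3935 CPM in the 4 libraries. The part of neutrophil RNA in its monocyte level was not tested. Outside monocytes, T cells of the 4 libraries held Ly6c2 at 584, 955, 447 and 76.7 CPM, dendritic cells at 527 and 8.82 CPM in young CA and aged CA, and neutrophils at 683 and 439 CPM. In aged sham, Ly6c2 was not low in monocytes or T cells, at 1574 and 447 CPM, while the 5 dendritic cells there held 0 CPM. In monocytes and T cells the low level was thus seen in aged CA and not in both aged libraries. The labels name C57Bl/6 for all groups, and the source or substrain of the mice in each pool is not given in the sources used here. A difference of origin between pools, of the same or of different age, cannot be told apart from their other differences and was not tested.

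Several other genes that were lower in aged CA monocytes were lower in other cells of that library too. Ly6a was at 398, 578, 7.79 and 21.0 CPM in monocytes and at 849 and 132 CPM in T cells of young CA and aged CA. In monocytes Ly6a was thus low in both aged libraries. Of its monocyte UMIs, 1 cell held 21 of 26 in aged CA, and 1 cell held 83 of 122 in young sham. Ifi27l2a was at 1069, 3392, 1450 and 246 CPM in monocytes, 2763 and 121 CPM in T cells and 608 and 92.5 CPM in microglia. Lst1 was at 609, 738, 651 and 95.3 CPM in monocytes and 113 and 13 CPM in microglia, and Olfml3, a microglial gene, at 101, 130.0, 89.6 and 4.85 CPM in monocytes and 806 and 133 CPM in microglia. In T cells, the measure of free RNA, Olfml3 was at 36.7 and 4.80 CPM in young CA and aged CA, and the part of free RNA in its monocyte level was not tested. For these genes the lower level was thus seen in monocytes and in the other classes shown. Gpnmb, Fabp5 and Ms4a7 were low in microglia of both libraries, at 2.86 and 1.42 CPM, 16.9 and 9.02 CPM and 3.97 and 0.874 CPM, and Ms4a7 was at 539 and 576 CPM in border macrophages, where aged CA was not lower. In the neutrophil class Gpnmb was at 560.3 and 0.703 CPM and Fabp5 at 578 and 9.85 CPM. That class was 24 barcodes in young CA and 75 in aged CA, taken by S100a8 and S100a9 at 3% of UMIs or more. How these UMIs were spread over its barcodes, and whether other cells were among them, was not tested. On the higher side, Ccl2 was at 105 and 512 CPM in microglia and 113 and 739.6 CPM in border macrophages, and Cxcl2 at 105 and 2313 CPM in neutrophils. Saa3 was level in border macrophages at 111 and 129.5 CPM and low in microglia at 17.5 and 5.79 CPM, so among these 6 classes it was higher in aged CA by 2-fold or more in monocytes and neutrophils.

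**Figure D5:**
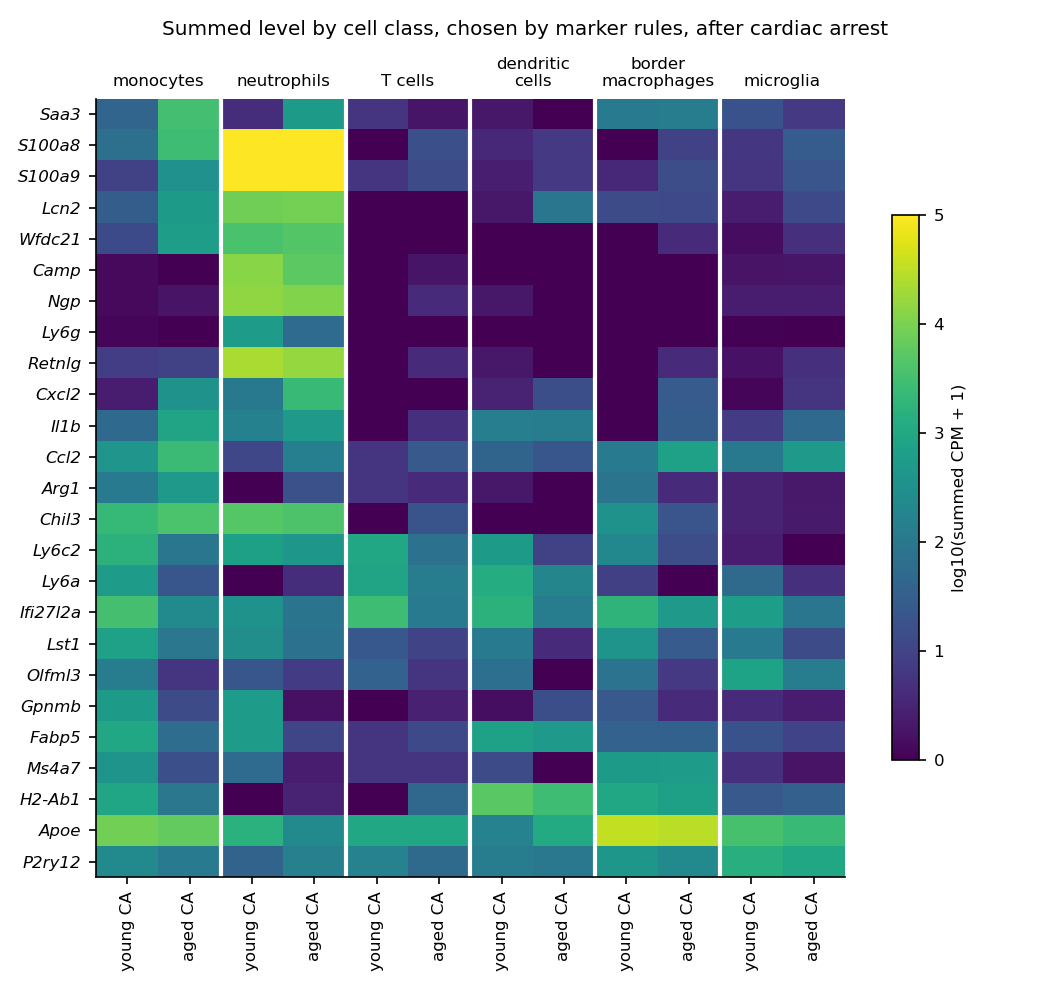
Colour gives log10 of summed CPM plus 1 for 25 genes (rows) in 6 cell classes chosen by marker rules, each in young CA and aged CA (columns). Saa3 is bright in aged CA monocytes while Camp, Ngp, Ly6g and Retnlg, bright in neutrophils, are dark in monocytes of both libraries, and Ly6c2 and Ifi27l2a are darker in aged CA in several classes.

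Against aged sham, aged CA monocytes were higher in chemokines (7 of 9 comparable genes at least 2-fold higher, 0 lower, median log2 ratio 5.54) and in inflammatory genes (6 of 8 higher, 0 lower, median 3.27). Over all 2321 comparable genes 9.91% were at least 2-fold higher and 10.6% at least 2-fold lower, with a median of -0.09. TMM scaling moved that median to 0.25 and gave 346 higher and 141 lower in place of 230 and 245. Cxcl10 was at 0 UMIs in aged sham and at least 322-fold higher in aged CA, and AA467197 at least 177-fold higher. Ccl2 was 95.8-fold higher (46.4 to 238) and Saa3 90.1-fold higher (47.4 to 197). In aged sham, 1 cell held 6 of the 7 Ccl2 UMIs, and 1 cell held all 9 Saa3 UMIs. Arg1 was 128-fold higher (22.8 to 5053), with 1 UMI in aged sham. Pattern recognition genes were higher in 5 of 7 cases, among them Cd14, the lipopolysaccharide coreceptor, 8.54-fold higher (4.84 to 16.6), and Clec4e, 17.6-fold higher (9.79 to 35.4). Interferon-stimulated genes were at least 2-fold higher in 14 of 25 and lower in 1 (median 1.22), and MHC class II genes lower in 6 of 7 (median -2.62), with Cd74 6.16-fold lower (5.50 to 6.91).

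Part of this comparison rested on single cells and on depth. The granule genes Mpo, Elane and Ctsg, which are made by marrow progenitors, were at 288, 222 and 238 CPM in aged sham, and all 74, 57 and 61 UMIs came from 1 cell of 65705 UMIs, which also held 47 Top2a UMIs and 207 Hist1h1b UMIs. A further pair of aged sham cells held 19 and 11 UMIs of Ace and 6 and 10 of Treml4, genes of nonclassical, patrolling monocytes. Without the cell of 65705 UMIs the cell cycle median was -0.43 in place of -2.00. Macrophage maturation genes were at least 2-fold higher in 9 of 17 and lower in 0 (median 1.03), but with cells weighted equally the median was -0.57 and with cells thinned to 1000 UMIs -0.84. Its direction thus depended on how cells were weighted. The shallow aged sham monocytes carried more microglial RNA, as given above, and the part of this was not tested.

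Monocytes of a library were not alike. Principal components of their log-normalised counts were computed within young CA (295 cells) and aged CA (47 cells). In young CA the first component took 8.30% of the variance and ran from C1qa, C1qc, C1qb, Tanc2, Cd81, Cst3 and Plxdc2 to Isg15, Rsad2, Ifit1, Ifit3, Slfn5, Irf7, Cstb and Ifit2. The 98 cells at the interferon end had Isg15 at 2358 CPM and C1qa at 338 CPM, and the 98 at the other end 577 and 2557 CPM. Across cells the score had a Spearman correlation of -0.79 with the interferon list and 0.56 with the microglial list, so the C1q end was also the end with more microglial RNA. The second component (6.79% of the variance) ran from Apoe, Ctsd, Ctsb, Gpnmb and Fabp5 to Ifitm2, Ifitm6, Crip1, Cxcl10 and S100a4. Gpnmb stood at 915 CPM in the 98 cells at its first end and 60.7 CPM in the 98 at its second, and Cxcl10 at 77.4 and 1956 CPM. These cells share 1 library, and the correlations are descriptions.

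In aged CA the first component took 19.4% of the variance and again separated cells by interferon-stimulated genes (Spearman correlation -0.86 with that list), led by Cxcl10, AA467197, Isg15 and Rsad2, with Gda, Hp and Ccl6 at the other end. The second, at 13%, had Saa3, S100a4 and Lyz2 at an end. Across the 47 cells Lcn2 and Wfdc21 had a Spearman correlation of 0.86, with 21 cells holding both and 20 neither. Saa3 and S100a8 had 0.65, and 25 cells held both, while Saa3 with Cxcl10 had -0.02. Cxcl10 and Isg15 went together in aged CA (0.79) and in young CA (0.53, 295 cells). Saa3 and Cxcl10 thus showed no common order across aged CA monocytes. Gpnmb and Fabp5, with a correlation of 0.46 in young CA, were both found in 92 of its cells and in 1 aged CA cell. Cells of 1 library share its free RNA and differ in depth. UMIs per cell had Spearman correlations of -0.10 and -0.55 with the first and second component in aged CA, where deeper cells lay toward the Saa3 end of the second. In young CA they were -0.12 and 0.32, with deeper cells toward the Gpnmb end of the second. The part of depth in these components was not tested.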

How the data were processed

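Brain cells positive for CD45 were profiled with 10x Chromium 3′ v3.1 chemistry in 4 libraries, each a pool of 3 mice. The authors deposited filtered matrices of raw UMI counts per gene and barcode, made with Cell Ranger 7.1.0 on mm10, per the submitters' processing notes. Counting of intronic reads is not given in the sources used here.

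From these counts, barcodes with at least 1000 UMIs and at most 10% mitochondrial UMIs were kept, and monocytes and 5 other classes (microglia, border-associated macrophages, dendritic cells, T cells and neutrophils) were taken by marker rules, with no clustering. Counts of the cells of a class in a library were summed and scaled to a total of 1000000 (CPM). A gene was compared when at least 20 UMIs were expected in the smaller library, and called at 2-fold or more. The 6 rule markers were left out of these counts. A sum of 0 was set to a floor of 3 UMIs over the library's monocytes, and the ratio then written as a bound. Intervals are 95% (Poisson for levels, conditional for ratios, Clopper-Pearson for shares) and cover counting error only. No test was possible with 1 library per group. Ratios were checked on simulated counts. Shares of cells with a UMI were taken after thinning each cell at random to 1000 UMIs.

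Members and gene lists were chosen with earlier results of these data known. Named genes are the 10 largest ratios in each direction for aged CA against young CA, 5 for each CA against sham comparison, the leading genes against other classes and of the components, and list members, leaving out rule, mitochondrial, ribosomal, haemoglobin, immunoglobulin, sex-linked and unnamed genes. Some genes that meet this rule are not reported here. Positions are GENCODE M21 (GRCm38). Promoters are RefSeq's. NF-kB and interferon motifs were searched on both strands. Doublets were scored with Scrublet in scanpy 1.11.5 and kept. Alternatives were other scalings (including TMM in edgeR 4.0.16), an added 10 CPM, other minimum UMIs, equal weight per cell, thinning, and leaving out doublets, cells with microglial UMIs or the deepest sham cell. Python 3.11.15, numpy 2.4.6, scipy 1.17.1, pandas 2.3.3, matplotlib 3.10.9 and R 4.3.3 were used.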

Additional observations from a re-analysis of the deposited data

Results flagged for a closer look

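In 3 genes named above, the difference between CA and sham had opposite signs in young and aged mice, outside counting error in each. These differences were not tested, since each group is 1 library. Fabp5, a fatty acid binding protein, had a log2 ratio of CA to sham of 3.32 in young and -1.15 in aged monocytes, and the aged ratio was -4.47 relative to the young one. Its aged sign changed to 0.42 when cells were weighted equally. Gbp2, an interferon-induced GTPase, had -1.82 in young and 1.66 in aged, a difference of 3.48, and 1 young sham cell held 55.0% of the Gbp2 UMIs of that library. Ifi27l2a, an interferon-induced gene, had 1.67 in young and -2.56 in aged, a difference of -4.23, and it was also low in T cells of aged CA, at 121 CPM against 632 CPM in aged sham.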

How the results depend on the processing

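No paired analysis was possible because each group is 1 library. The choices of leaving out cells with 0.1% or more microglial UMIs, a minimum of 5000 UMIs and leaving out the deepest sham cell were added after seeing the data.

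Shares moved with the denominator and with microglial RNA. Without microglia in the denominator, the young CA to young sham ratio was 6.57, the aged CA to young CA ratio 0.145, and the aged sham to young sham ratio turned to 0.753. The aged CA and aged sham shares were then 2.72% and 2.15%, with intervals that overlapped. Without cells holding a P2ry12, Tmem119 or Sall1 UMI, aged CA to aged sham was 1.14 and aged CA to young CA 0.604. Only 7 aged CA, 7 aged sham and 20 young CA cells were left, and young sham had none, so its ratios have no value there. With cells of 0.1% or more microglial UMIs left out, aged CA to aged sham was 3.95. Thinned to 1000 UMIs, aged CA to young CA was 0.190.

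Counts of genes 2-fold apart depended on depth. For aged CA against young CA they were 209 higher and 424 lower with 10 CPM added, 690 and 1274 at 5 expected UMIs, 179 and 379 at 50, 18 and 37 after thinning, and 104 and 149 without cells holding microglial UMIs. For young CA against young sham they were 603 and 908 at 5 expected UMIs, 104 and 89 at 50, 7 and 4 after thinning, and 163 lower with TMM scaling. For aged CA against aged sham they were 346 and 141 with TMM scaling, 611 and 1096 at 5 expected UMIs, 88 and 75 at 50, 25 and 18 after thinning, and 87 and 81 without cells holding microglial UMIs. Fewer genes or cells entered the stricter settings.

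Of single genes, 1 of 1750 values in the aged CA against young CA alternatives changed sign: Cd14, to -0.43 without cells holding microglial UMIs. In aged CA against aged sham, 6 of 1454 were counted. With cells weighted equally, C1qb was -1.25, C1qc -1.04, Cd63 -0.36, Fabp5 0.42 and Lgmn -0.27, and with thinning C1qb was -1.21. The macrophage maturation median was -0.57 and -0.84 in those settings. The cause was not tested. For young CA against young sham, none of 1369 gene values was counted, and smaller differences were not followed.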
